A study of Homo sapiens with 12 samples.

Results

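The metallothionein cluster of chromosome 16 was described in cultured clear cell renal cell carcinoma (ccRCC) cells, together with MTF1, the transcription factor that controls it. Its members were the rows of the gene count table whose symbol was MT1A, MT1E, MT1F, MT1G, MT1H, MT1L, MT1M, MT1X, MT2A or MTF1, which gave 10 of 45478 rows, 9 of them metallothioneins. They were selected on measured values of these libraries, the lower level of MT1L in resistant 786-O than in 786-O and its near absence in A498, so those values are given as a description without a test. mRNA was sequenced from 3 libraries in each of 4 groups. 786-O and A498 are parental ccRCC lines that both lack functional VHL. Resistant 786-O was derived from 786-O under 4 μM sunitinib, a tyrosine kinase inhibitor, and resistant A498 from A498 under 2 μM, over 4 months or more than 20 passages with the drug always in the medium. 786-O and A498 without the word resistant mean the parental lines. Each resistant line is a single selected culture, the treatment label of all 12 libraries is none, and no source used here says whether replicates are separate cultures, so that p-values measure the spread between libraries, which may be technical. The batch labels differ between all 4 groups, and batch and group cannot be told apart.

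Metallothioneins are small proteins rich in cysteine that bind zinc, copper and cadmium, buffer these metals in the cell and scavenge oxidants. Their genes are switched on when MTF1, a zinc-sensing factor, binds metal response elements in their promoters, and glucocorticoids and oxidant stress induce several of them as well. The kidney tubule, from which ccRCC arises, is a major site of metallothionein storage and of metal reabsorption.

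The libraries held 20042519 to 47972092 counts, with a median of 37898338. The resistant A498 libraries went against their label. Over the log2 levels of the genes tested, their median correlation was 0.870 with the A498 libraries, 0.951 with 786-O and 0.982 with resistant 786-O, while A498 and 786-O correlated at 0.868. The comparison of resistant A498 with A498 is therefore given beside that of resistant A498 with 786-O. In resistant 786-O, replicate 2 stood apart, with an SD of 0.287 for its log2 deviation from the mean of replicates 1 and 3 over 9917 genes, against 0.117 for replicate 1 minus replicate 3. Among 9 kidney tubule and renal carcinoma markers, 8 or 9 had a mean of at least 1 CPM (counts scaled to the normalized library size) in each group. Of 7 T cell and 3 endothelial markers, 0 reached that level in any group, and of 5 fibroblast markers 1 to 3 did. In bulk libraries, fewer cells with a transcript and less of it per cell cannot be told apart.

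MT1L is annotated as a transcribed pseudogene at chr16:56617563-56618680 on the plus strand (GRCh38, GENCODE v44), between MT2A and MT1E. Its coding-like sequence and that of MT1E, its closest relative in the cluster, are shown from GENCODE v44 because MT1L differed most of the members between 786-O and resistant 786-O, the contrast on which they were selected, and its reads must be told from those of its relatives. Capitals mark the bases that differ between them.
MT1L: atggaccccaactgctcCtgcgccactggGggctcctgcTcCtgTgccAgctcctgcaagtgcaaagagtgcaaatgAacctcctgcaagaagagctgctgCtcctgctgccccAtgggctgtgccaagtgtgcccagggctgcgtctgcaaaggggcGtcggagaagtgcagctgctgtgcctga
MT1E: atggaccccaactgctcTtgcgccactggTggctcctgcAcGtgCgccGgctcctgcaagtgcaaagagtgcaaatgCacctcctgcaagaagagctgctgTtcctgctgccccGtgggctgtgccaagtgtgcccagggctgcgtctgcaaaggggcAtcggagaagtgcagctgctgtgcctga
Both were 186 bases long, and 10 bases differed, an identity of 94.6%. Relative to MT1E, and counted from 1 at the first base of the ATG, the substitution C78A gives MT1L an in-frame TGA at codon 26, whereas MT1E and the other intact members of that length stop at codon 62. MT1L kept 19 of the 20 cysteine codons found in MT1E. Its identity to the remaining members ranged from 90.9% to 93.5%, and the longest run it shared with MT1E was 43 bases.

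The family resemblance sets a limit on counting. The annotated exons of MT1L lie wholly within ENSG00000291105, a noncoding gene of GENCODE v44 on the same strand, and the transcripts of both were pooled. Of their 477 windows of 100 bases, 0 matched a transcript of any further gene exactly and 12, or 2.52%, matched another metallothionein within 2 mismatches. No window of MT1A, MT1E, MT1F, MT1G, MT1M or MT2A was shared exactly with another gene either, but windows within 2 mismatches made up 4.27% of MT1E, 5.02% of MT2A and 6.66% of MT1G. The share was 10.5% for MT1H, of whose 722 windows 10, or 1.39%, were identical to MT1HL1. MT1X differed in that 223 of its 1921 windows, 11.6%, were identical to ENSG00000259827, a long noncoding RNA on the same strand that shares 321 of the 1727 exonic bases of MT1X. The authors counted alignments with a mapping quality of at least 12. The counting options that the paper lists include none that assigns a read to several genes. The treatment of such reads is not stated beyond that, and whether their annotation held that RNA was not checked. Whether reads of one paralog were counted for another was not tested. The authors counted over an earlier model of MT1L, so its level depends on the gene model.

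The promoters of MT2A, MT1X and MT1H are shown because they are the cluster's members with an entry in the RefSeq promoter table (GRCh38.p14) and the first pair differed between groups while MT1H was almost silent. Each sequence holds the 250 bases before the gene's start on the plus strand, at chr16:56608334-56608583, chr16:56682220-56682469 and chr16:56669564-56669813, and capitals mark matches on either strand to TGCACNC or TGCGCNC, the core letters of the metal response element.
MT2A: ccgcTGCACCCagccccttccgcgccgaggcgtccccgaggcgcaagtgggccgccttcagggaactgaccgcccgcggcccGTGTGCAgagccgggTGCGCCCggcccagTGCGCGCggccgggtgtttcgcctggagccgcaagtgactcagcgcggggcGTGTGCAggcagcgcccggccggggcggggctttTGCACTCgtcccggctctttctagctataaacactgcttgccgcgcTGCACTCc
MT1X: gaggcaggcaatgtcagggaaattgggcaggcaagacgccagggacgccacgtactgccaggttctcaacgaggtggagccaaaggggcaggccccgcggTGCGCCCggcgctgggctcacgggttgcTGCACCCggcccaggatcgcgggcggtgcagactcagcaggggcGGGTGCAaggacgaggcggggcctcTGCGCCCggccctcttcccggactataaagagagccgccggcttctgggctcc
MT1H: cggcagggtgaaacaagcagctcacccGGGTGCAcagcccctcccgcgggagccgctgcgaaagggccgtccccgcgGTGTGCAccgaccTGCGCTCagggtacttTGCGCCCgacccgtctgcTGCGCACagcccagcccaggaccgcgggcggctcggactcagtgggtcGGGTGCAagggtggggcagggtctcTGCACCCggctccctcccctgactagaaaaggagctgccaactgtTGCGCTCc
With the 50 bases after the start included, MT2A held 8 matches, MT1H 8 and MT1X 4, and MTF1 itself 0. Of 35116 promoters of the same 300 bases, 29.6% held at least 1 match, 0.601% at least 4 and 0.0740% at least 6. The match count did not separate expressed from silent members, since MT1H had as many as MT2A. MT1A, MT1E, MT1F, MT1G, MT1L and MT1M had no entry in that table. A match is a match of letters and not a shown binding site.

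Of the 10 members, 6 passed the filter on low counts, namely MT2A, MT1E, MT1F, MT1X, MT1L and MTF1. MT1A and MT1M had 0 counts in all 12 libraries, which at the smallest and largest depth allows up to 0.143 and 0.0612 CPM per library (3 counts, counting error only). MT1H had 1 count in 1 library of 786-O, and MT1G had at most 3 counts in any library. The silent members lay between expressed ones, as the map of the cluster shows, with MT1M and MT1A between MT1E and MT1F and with MT1G and MT1H between MT1F and MT1X.

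**Figure D1:**
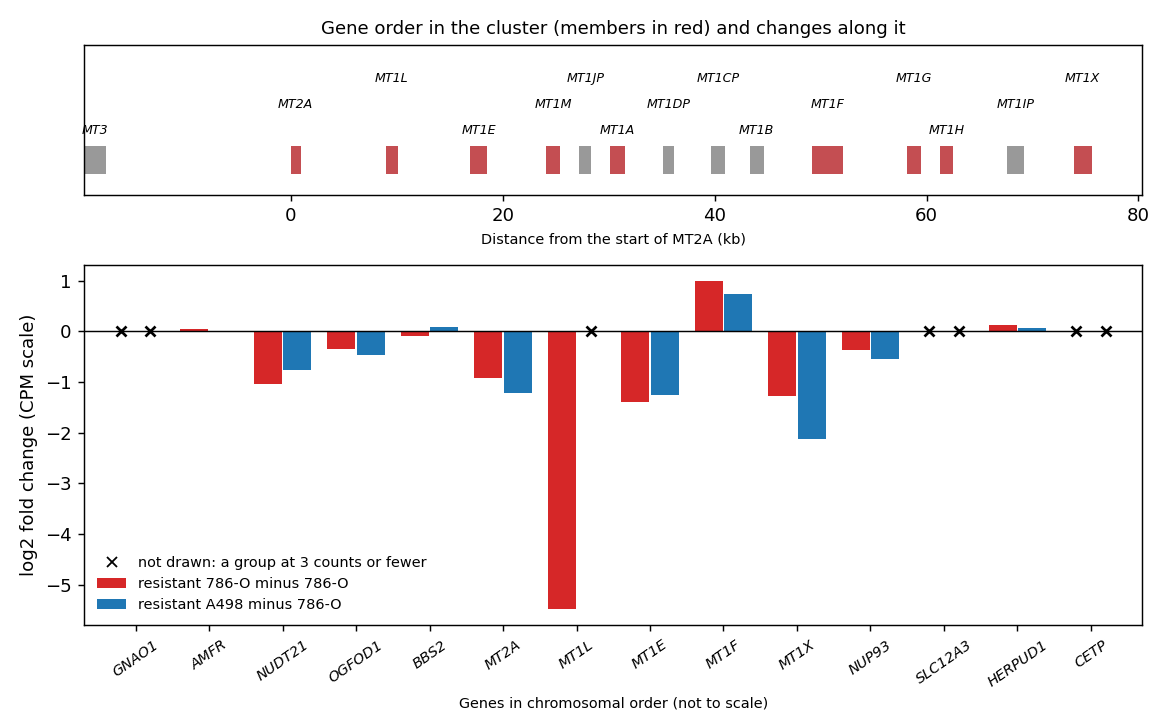
Top: genes of the cluster by distance in kb from the start of MT2A, with members in red and other metallothionein loci in grey. Bottom: log2 fold change (CPM scale) of each gene tested along the region, for resistant 786-O minus 786-O in red and resistant A498 minus 786-O in blue, with a cross where a group had 3 counts or fewer in every library; MT1L was at -5.48 in resistant 786-O, MT2A, MT1E and MT1X were lower in both comparisons and MT1F was higher in both.

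MT2A, the most abundant metallothionein of most human tissues, was the largest contributor in every group. Its level was 788, 723 and 741 CPM in the 786-O libraries and 320, 457 and 408 CPM in those of resistant 786-O. In A498 it was 381, 425 and 491 CPM, and in resistant A498 338, 355 and 281 CPM. All 3 libraries of 786-O lay above the 9 others, and the neighbouring groups below them overlapped. Group means were 751 ± 33.3 CPM in 786-O, 432 ± 55.3 in A498, 395 ± 69.3 in resistant 786-O and 325 ± 38.8 in resistant A498 (SD, n = 3 libraries).

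MT1E, a zinc-inducible MT1 isoform whose coding sequence lies closest to that of MT1L, separated A498 from everything else. A498 held 9, 8 and 5 counts of it, or 0.272 ± 0.0945 CPM (SD, n = 3). By contrast, 786-O reached 296, 263 and 279 CPM, resistant 786-O 95.1, 124 and 98.8 CPM, and resistant A498 121, 117 and 113 CPM. The resistant A498 libraries thus lay within the range of the resistant 786-O libraries, below 786-O and far above the line they are labelled as.

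MT1F, another MT1 isoform, was the only one of the 6 with its highest group mean in a resistant line. Resistant 786-O gave 11.2, 10.8 and 11.7 CPM and resistant A498 9.54, 9.18 and 9.62 CPM. 786-O followed with 5.78, 5.76 and 5.54 CPM, and A498 was lowest with 0.781, 1.39 and 0.772 CPM. No pair of neighbouring groups in this order overlapped.

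MT1X, an isoform at the far end of the cluster, was low in resistant A498, at 2.38, 2.49 and 2.82 CPM. In resistant 786-O it was 3.16, 7.28 and 3.56 CPM, with replicate 2 the highest. A498 held 6.13, 8.78 and 10.2 CPM and 786-O 11.5, 11.6 and 10.8 CPM. 786-O lay above the other groups and resistant A498 below them, while A498 and resistant 786-O overlapped.

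MT1L showed the widest range between 786-O and resistant 786-O. The 786-O libraries held 715, 686 and 865 counts, or 18.8, 17.7 and 19.2 CPM. In resistant 786-O the counts were 7, 43 and 7, or 0.143, 0.984 and 0.153 CPM. A498 had 0, 0 and 1 counts and resistant A498 0, 1 and 2. All 786-O libraries lay above those of resistant 786-O, and A498 and resistant A498 were at or under the limit that 3 counts set. Replicate 2 of resistant 786-O held most of that group's counts.

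MTF1 was nearly level across the 12 libraries. Its lowest library, at 25.1 CPM, was in A498 and its highest, at 30.9 CPM, in resistant 786-O. Means ran from 26.1 ± 1.68 CPM in A498 to 29.5 ± 1.64 in 786-O (SD, n = 3), and no pair of neighbouring groups was separated.

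**Figure D2:**
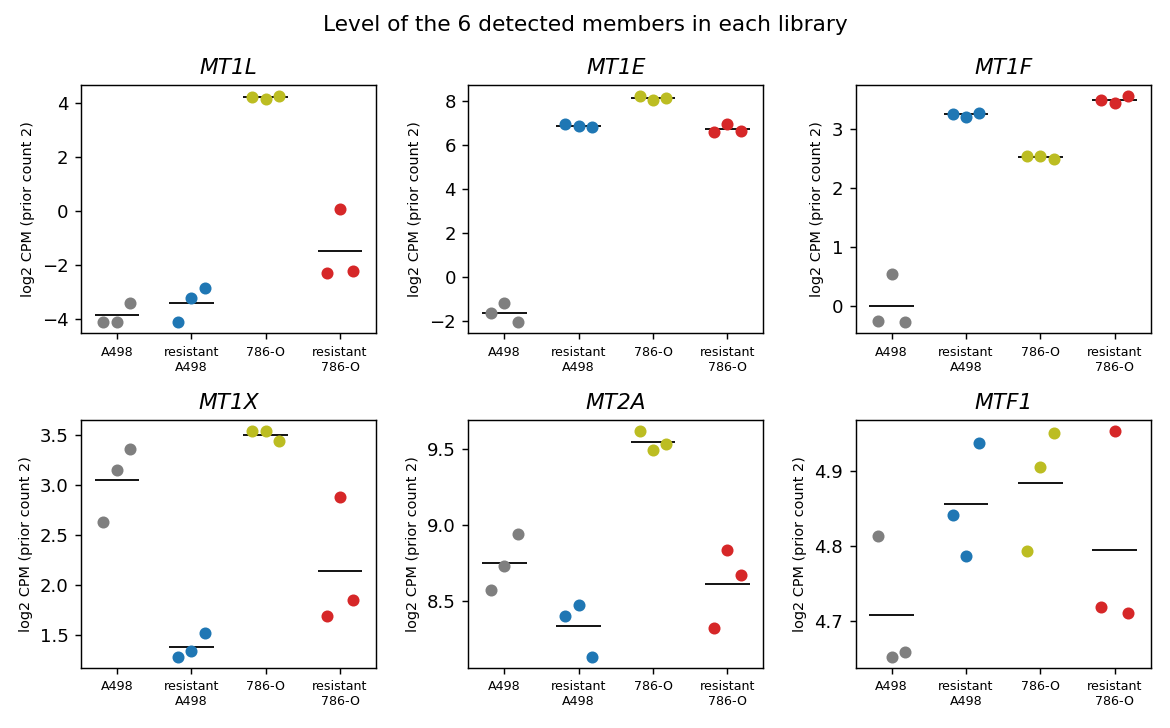
Level of the 6 members that passed the filter, as log2 CPM with a prior count of 2, in each of the 12 libraries (points, replicates 1 to 3 from left to right) with the group mean (line). MT1L is high in 786-O alone, MT1E is near absent in A498 alone, MT1F is highest in the resistant lines, and 1 library of resistant 786-O stands above the others for MT1L and MT1X; each panel has its own axis.

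Per kilobase of exon, the scale on which genes can be set side by side, MT2A reached 821 ± 36.5 CPM per kb in 786-O and MT1E 266 ± 15.4, while MT1X reached 6.53 ± 0.261, MTF1 3.69 ± 0.205 and MT1F 3.08 ± 0.0719 (SD, n = 3). In A498 the same quantity was 473 ± 60.5 for MT2A and 0.259 ± 0.0898 for MT1E. MT2A and MT1E thus stood above MT1X, MTF1 and MT1F in 786-O. MT1L was at 99.8 ± 4.03 CPM per kb in 786-O over the 186 exonic bases of its GENCODE v44 model, which is not the model its reads were counted over, so its place in this order is uncertain.

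Summed over the 9 metallothioneins, the level was 1066 ± 49.8 CPM in 786-O, 517 ± 85.2 in resistant 786-O, 454 ± 41.7 in resistant A498 and 442 ± 57.2 in A498 (SD, n = 3). 786-O lay above the other groups in every library, and the remaining neighbours overlapped. This sum does not depend on how reads are divided among the counted paralogs. The make-up of the sum differed more than its size among the lower groups. MT2A took 97.8% of it in A498 and 71.4% in resistant A498, 70.4% in 786-O and 76.3% in resistant 786-O. The share of MT1E was 0.0630% in A498, 25.9% in resistant A498, 26.2% in 786-O and 20.6% in resistant 786-O. MT1F took 2.10% in resistant A498 and 2.22% in resistant 786-O, against 0.535% in 786-O and 0.225% in A498. MT1L took 1.74% in 786-O and at most 0.0755% as a mean of any other group. Resistant A498 thus overlapped A498 in its summed level and stood with the 786-O lines in its make-up.

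**Figure D3:**
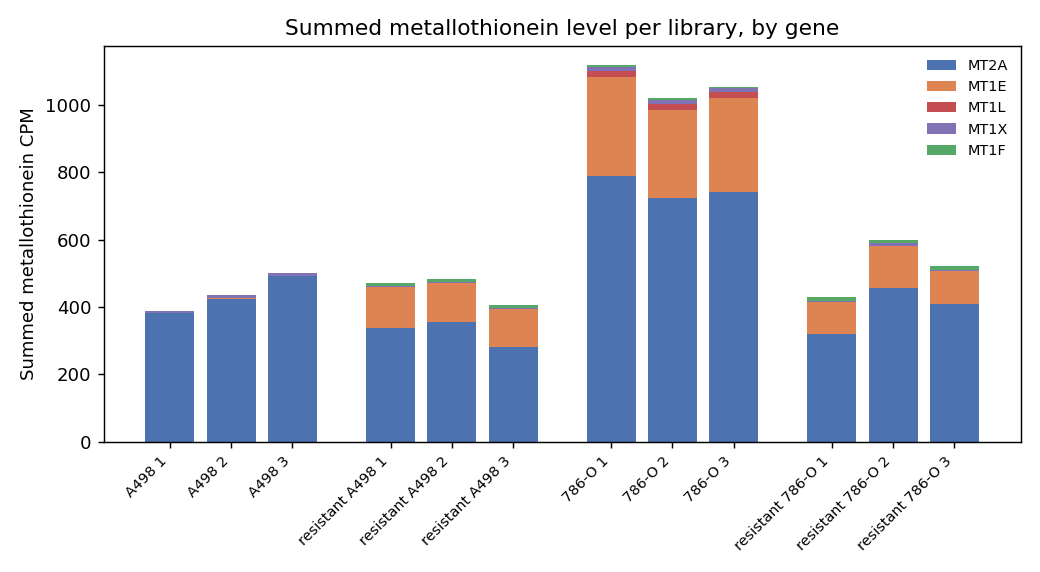
Summed level of the metallothioneins in CPM for each of the 12 libraries, stacked by gene. The 3 libraries of 786-O reach 1022 to 1120 CPM and the 9 others 388 to 600 CPM, and the MT1E segment is missing from A498.

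The comparison of resistant 786-O with 786-O asks what came with sunitinib resistance in 786-O. Since it helped to choose the members, its values are a description. MT1L differed by -5.48 ± 0.34 on the log2 scale, MT1E by -1.40 ± 0.08, MT1X by -1.28 ± 0.24 and MT2A by -0.93 ± 0.12 (SE), whereas MT1F differed by 0.98 ± 0.11 and MTF1 by -0.09 ± 0.07. In this comparison 68.5% of the 19929 genes tested were called at an adjusted p under 0.05, 35% higher and 33.5% lower, and the libraries of 68.9% did not overlap. The summed level differed by a log2 ratio of -1.04. From raw counts, MT1L was 45.2-fold higher in 786-O than in resistant 786-O, from 2266 and 57 counts. No interval is given, since the value was selected and the resistant libraries held 7, 43 and 7 counts. Without replicate 2 of resistant 786-O, the difference of MT1L was -6.94 instead, and the count ratio 126. That library deviated from the mean of the others by 2.34 log2 units for MT1L, 1.10 for MT1X and 0.35 for MT1E. The deviation was 0.34 for MT2A, 0.24 for MTF1 and -0.08 for MT1F. All 6 had the direction of 786-O, and the share of all genes with that direction was not computed. Replicate 1 minus replicate 3 was itself -0.35 for MT2A and -0.07 for MT1F. For MTF1, 786-O lay 0.17 above the mean of replicates 1 and 3, less than the deviation.

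Resistant A498 was compared with A498, its labelled parent, by edgeR's quasi-likelihood test over all 19929 genes. MT1E was 8.77 ± 0.17 higher on the log2 scale and MT1F 3.32 ± 0.15 higher (SE; Benjamini-Hochberg adjusted p = 2.3e-15 and 3.2e-11). MT1X fell by 1.69 ± 0.29 and MT2A by 0.41 ± 0.12 (adjusted p = 8.2e-05 and 0.0054, same test). MTF1, at 0.15 ± 0.08, was not called (edgeR adjusted p = 0.11), although it was without replicate 2 or 3 of resistant 786-O, at 0.15 and 0.18. So 4 of the 5 members tested were called, 2 in each direction, where 72.7% of all genes were, 36.3% higher and 36.4% lower. The libraries of 4 of the 5 did not overlap, beside 78.5% of all genes. Without replicate 3 of resistant A498 the difference of MT2A was -0.29 and was no longer called.

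Against 786-O, which the resistant A498 libraries resemble more, the same libraries gave another picture. MT1E was lower in resistant A498 by a log2 fold change of -1.26 ± 0.08, MT2A by -1.21 ± 0.12 and MT1X by -2.13 ± 0.28 (SE; edgeR adjusted p = 6.0e-09, 4.0e-07 and 7.5e-06). MT1F was 0.73 ± 0.11 higher (edgeR adjusted p = 3.6e-05), and MTF1 differed by -0.03 ± 0.08 (adjusted p = 0.77). Thus 4 of 5 members were called, 1 higher and 3 lower, where 63.6% of all genes were, 31.6% higher and 32.1% lower. Libraries of 4 of the 5 did not overlap, beside 73.4% of all genes. The difference of MT1E turned from higher to lower between the comparisons with A498 and with 786-O. MT1L was not tested, and its counts in 786-O were 455-fold those in resistant A498 per unit of depth (95% interval 155 to 2206, counting error only, with 3 counts in resistant A498). This comparison and that of resistant 786-O with 786-O share the 786-O libraries, so their values stand side by side without a test of likeness.

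The resistant lines were then set against each other. MT1X was lower in resistant A498, with a log2 fold change of -0.86 ± 0.29 (SE; edgeR adjusted p = 0.026). MT1E differed by 0.14 ± 0.08, MT1F by -0.25 ± 0.11, MT2A by -0.28 ± 0.12 and MTF1 by 0.06 ± 0.08 (edgeR adjusted p = 0.18, 0.064, 0.061 and 0.55). With 1 of 5 members called, beside 46.1% of all genes, 23% in each direction, most of the cluster was not distinguishable here, which does not show that it was equal. MT1F and MT1X, 2 of the 5, had libraries that did not overlap, beside 51.8% of all genes. The call of MT1X was lost without any single resistant A498 library and without replicate 2 of resistant 786-O, where its difference was -0.39. Without the latter MT1E, MT1F and MTF1 were called, at 0.27, -0.27 and 0.15. MT1F was also called without replicate 2 of A498, at -0.25, and MT2A without replicate 1 of resistant 786-O, at -0.41. MT1L was 10.1-fold higher in resistant 786-O by counts (95% interval 3.27 to 50.2, counting error only, 57 against 3 counts). Without replicate 2 of resistant 786-O, which held 43 of the 57, the ratio was 3.61 (95% interval 1.01 to 19.6).

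Between the parental lines, MT1E was 10.03 ± 0.16 higher in 786-O than in A498 on the log2 scale, MT1F 2.59 ± 0.15 and MT2A 0.80 ± 0.12 (SE; edgeR adjusted p = 3.2e-16, 5.7e-10 and 1.8e-05). MT1X, at 0.44 ± 0.23, and MTF1, at 0.17 ± 0.08, were not called (edgeR adjusted p = 0.10 and 0.054). So 3 of 5 members were called, all higher in 786-O, where 74.2% of all genes were called, 38.2% higher and 36.1% lower. For 4 of the 5 the libraries did not overlap, beside 80.2% of all genes. Without replicate 2 of resistant 786-O, which enters only the shared estimate of the spread, both MT1X and MTF1 were called, at 0.46 and 0.18, and MTF1 was also called without replicate 1 of A498, 786-O or resistant 786-O, at 0.24, 0.23 and 0.18, or without replicate 3 of resistant 786-O, at 0.18. MT1L counts in 786-O were 1549-fold those in A498 per unit of depth. That ratio rests on 1 count in A498 and describes a value used for selection.

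Loci outside the member list were nearly silent. Of 11 further metallothionein genes and pseudogenes, 9 had a row in the table, and MT3, MT1B and MT1CP had 0 counts throughout. MT1P3, a processed pseudogene on chromosome 20, had 33 to 43 counts in 786-O, 19 to 30 in resistant 786-O, 7 to 12 in resistant A498 and 0 to 2 in A498. Like MT1E, it was highest in 786-O and lowest in A498. Each of the remaining 5 held at most 12 counts in any library.

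Over the 12 libraries, the genes with the pattern most like MT1L, by the root mean square difference of centred log2 CPM, were IGFBP4 at 0.703, ALDH2 at 0.814 and COL6A3 at 0.816. IGFBP4 encodes a binding protein of insulin-like growth factors, ALDH2 a mitochondrial aldehyde dehydrogenase and COL6A3 a collagen chain. IGFBP4 had 405, 390 and 415 counts in 786-O, 10, 27 and 14 in resistant 786-O, and at most 2 in any library of A498 or resistant A498. ALDH2 had 1909, 1699 and 2139 counts in 786-O against 83, 207 and 85 in resistant 786-O. For both, as for MT1L, replicate 2 was the highest of the resistant 786-O libraries, which a choice by likeness over all 12 libraries favours. The likeness over 12 libraries mostly follows 4 group levels. For MT2A the closest were RRS1, a ribosome assembly factor, at 0.117, LSMEM2 at 0.118 and ENSG00000276529 at 0.129. RRS1 had means of 110 CPM in 786-O, 66.6 in A498, 63.5 in resistant 786-O and 52.6 in resistant A498. This is the same order of groups as MT2A, which the choice by likeness favours as well. Among the members themselves, MT2A lay closest to MTF1 at 0.468 and MT1X at 0.523, and MT1E farthest from MT1X at 4.18. This measure is small when both genes vary little. MTF1 was nearly level, so its distance to MT2A does not show a shared pattern.

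Genes that move zinc and copper, and genes of responses that induce metallothioneins, were counted by list, with calls by the same edgeR test. Each list count is to be read beside the share of all genes called. That share was 36.3% higher and 36.4% lower in resistant A498 minus A498. In resistant 786-O minus 786-O it was 35% and 33.5%, and in resistant A498 minus 786-O 31.6% and 32.1%. The change from A498 to resistant A498 differed from that of the 786-O pair, by an interaction term of the same model, in 68.3% of all genes, with 33.9% higher and 34.4% lower in the A498 pair, and members were not put to that test. The median log2 fold change of all genes was 0.0030 in resistant A498 minus 786-O and 0.04 in 786-O minus A498. Of 7 zinc exporters tested, most of which carry zinc out of the cytosol, 2 rose and 5 fell from A498 to resistant A498. Their median log2 fold change was -0.82, or -0.54 without SLC30A3, beside a median of -0.0041 over all genes. SLC30A3 had 87 to 128 counts in A498 and 0 in resistant A498 and 786-O. SLC30A4, a vesicular exporter, fell from 5.48 ± 0.457 CPM in A498 to 1.94 ± 0.268 in resistant A498 (SD, n = 3), a log2 fold change of -1.51 ± 0.15 (SE). In resistant 786-O against 786-O, 1 exporter was higher and 5 lower (median -0.46, or -0.49 without SLC30A3, beside 0.03 over all genes). SLC30A4 was the one higher, at 1.80 ± 0.277 against 1.14 ± 0.110 CPM, and SLC30A9 fell by 0.52 ± 0.06. With counts thinned to the smallest library, SLC30A4 was at 0.38 and not called. Against 786-O, resistant A498 had 1 exporter higher and 2 lower, and the one higher was SLC30A4, at 0.76 ± 0.18, the opposite direction to that against A498.

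Among 12 zinc importers, which carry zinc into the cytosol, 5 rose and 5 fell from A498 to resistant A498, and 4 rose and 7 fell from 786-O to resistant 786-O. SLC39A4, the importer of dietary zinc in the gut, fell by 1.37 ± 0.10 in resistant A498, and SLC39A1 was 0.85 ± 0.10 higher (SE). Against 786-O, 4 importers were higher and 6 lower in resistant A498, with SLC39A4 at -1.12 ± 0.10 and SLC39A1 at 1.05 ± 0.10. In resistant 786-O, SLC39A13 was 0.69 ± 0.07 higher and SLC39A5, at 0.972 ± 0.170 against 1.58 ± 0.126 CPM, fell by 0.70 ± 0.21, a call lost when counts were thinned. Of 11 genes of copper handling, 2 rose and 5 fell from A498 to resistant A498, and 3 rose and 2 fell from 786-O to resistant 786-O. For importers and copper genes alike, the shares of all genes called were 72.7% and 68.5% in these comparisons. ATP7B, a copper-exporting ATPase, was higher in both, by 0.78 ± 0.10 and 0.76 ± 0.09. ATOX1, the chaperone that hands copper to it, was lower in resistant A498, at -0.90 ± 0.08, and SOD1, the copper-zinc superoxide dismutase, fell by 0.71 ± 0.04 in resistant 786-O. Against 786-O, resistant A498 had 2 copper genes higher and 5 lower, with ATP7B at 0.68 ± 0.09 and ATOX1 at -0.41 ± 0.08.

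The list of metal and oxidant stress genes, which cadmium and oxidants induce alongside metallothioneins, set A498 apart. In resistant A498 against A498, 1 of 10 was higher and 8 were lower, with a median log2 fold change of -1.64. HMOX1, a heme-degrading enzyme, had 570, 525 and 554 CPM in A498 and 52.3, 53.5 and 51.6 CPM in resistant A498. Its levels in 786-O, 68.4, 65.1 and 68.6 CPM, were near those of resistant A498, and resistant 786-O had 58.0, 102 and 62.5 CPM. HSPA1A, a heat shock protein, fell from 57.3 ± 7.13 CPM in A498 to 8.60 ± 1.21 in resistant A498 (SD, n = 3). Its paralog HSPA1B went the other way, from 31.2 ± 1.16 to 42.7 ± 0.784 CPM. Whether reads of one were counted for the other was not tested. The same list was 2 higher and 8 lower in 786-O against A498 (median -1.43), which shares the A498 libraries, and 2 higher and 4 lower in resistant A498 against 786-O (median -0.01). In resistant 786-O against 786-O it was 4 higher and 2 lower (median 0.03), with SRXN1, a redox repair enzyme, 1.11 ± 0.33 higher and GCLM, of glutathione synthesis, 0.55 ± 0.05 lower. Without replicate 3 of 786-O, the difference of SRXN1 was 0.78 and was no longer called.

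Of 7 glucocorticoid-responsive genes tested, 3 rose and 2 fell from A498 to resistant A498, and 2 rose and 2 fell from 786-O to resistant 786-O. Beside these counts and those of the genes beside the cluster, 72.7% and 68.5% of all genes were called. SGK1, a kinase of sodium transport, was 0.92 ± 0.09 higher and KLF9, a transcription factor, 0.71 ± 0.08 higher in resistant A498 than in A498. In the same comparison PER1 differed by -0.70 ± 0.13. Against 786-O, 3 genes of the list were higher and 3 lower in resistant A498, and the largest difference was that of TSC22D3, at 1.58 ± 0.05. KLF9 was again higher, at 0.31 ± 0.08, and SGK1 was lower, at -0.79 ± 0.09, the opposite direction. KLF9 and FKBP5, a chaperone of the glucocorticoid receptor, fell by 0.89 ± 0.08 and 0.73 ± 0.06 in resistant 786-O. DUSP1 was 0.52 ± 0.16 higher there, with replicate 2 at 107 CPM and the others at 57.2 and 62.4. TSC22D3 rose from 16.2 ± 0.588 CPM in 786-O to 22.9 ± 0.225 in resistant 786-O (SD, n = 3). It went the other way in the A498 pair, from 69.0 ± 1.05 CPM in A498 to 48.6 ± 2.63 in resistant A498. The 9 genes beside the cluster held 1 that rose and 4 that fell from A498 to resistant A498, and 2 that rose and 3 that fell from 786-O to resistant 786-O. NUDT21, an RNA cleavage factor on the MT2A side, fell by 1.05 ± 0.05 in resistant 786-O, whereas NUP93 beyond MT1X fell by 0.36 ± 0.04. CETP, with 1 to 3 counts in 786-O and 4 to 40 in resistant 786-O, was called higher from few counts. In A498, OGFOD1, a ribosome hydroxylase, stood at 89.8 ± 0.0564 CPM, and in resistant A498 at 64.9 ± 2.26 CPM. GNAO1, a G protein subunit, had 97 to 128 counts in A498, 2 to 4 in resistant A498 and at most 1 in 786-O. Against 786-O, resistant A498 had 3 of these genes higher and 3 lower, with OGFOD1 at -0.47 ± 0.08 and NUDT21 at -0.76 ± 0.05.

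**Figure D4:**
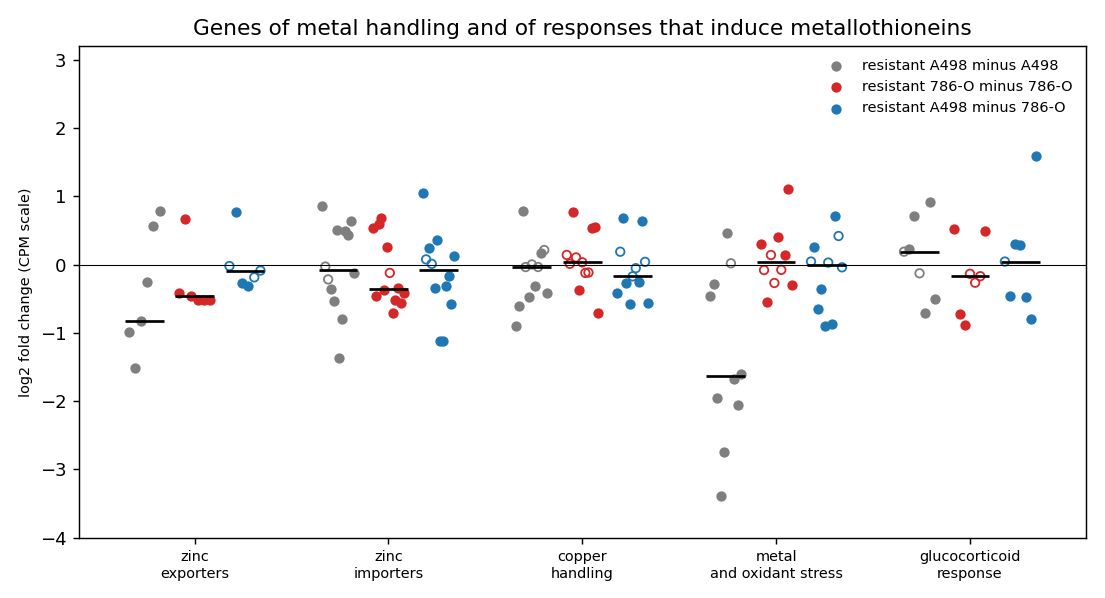
Log2 fold change (CPM scale) of each gene in 5 lists for resistant A498 minus A498 (grey), resistant 786-O minus 786-O (red) and resistant A498 minus 786-O (blue). Filled points were called by edgeR at an adjusted p under 0.05, open points were not, lines are list medians and SLC30A3, at 3 counts or fewer in a group, is not drawn; the stress list is low in resistant A498 against A498 and near 0 against 786-O.

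Scaling by library size alone, in place of TMM, moved the median of all genes from 0.03 to 0.18 in resistant 786-O minus 786-O and from 0.0030 to 0.15 in resistant A498 minus 786-O. The share of called genes that were higher moved from 51.1% to 62.4% and from 49.6% to 62.5%. MT2A, MT1E, MT1X, MT1F and MT1L kept their direction in both comparisons under that scaling, while MTF1, not called, moved to 0.05 and 0.12.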

How the data were processed

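Polyadenylated RNA of 4 groups of 3 libraries was sequenced with a stranded kit. Per the labels and the methods, the authors trimmed reads with Trimmomatic 0.36.6, aligned them to GRCh38 with HISAT2 2.1.0 and counted reads over exons of GENCODE v33 with featureCounts 1.6.3 in strand mode 1 at a mapping quality of at least 12. With this kit, that mode would count the strand opposite to the transcript. In 1322 of 1532 pairs of a gene and the antisense gene named after it, the gene nevertheless had more counts, and the strand was not checked further. The deposited values are raw counts of reads per gene, not normalized. Depth was 20042519 to 47972092 counts per library. Intervals and limits cover counting error only.

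Here the counts of all 12 libraries were filtered with filterByExpr, leaving 19929 genes, scaled by TMM and fitted with 4 group means by the quasi-likelihood test of edgeR 4.0.16 (limma 3.58.1, R 4.3.3). Benjamini-Hochberg adjustment covered all genes tested, with a threshold of 0.05. Levels are CPM on TMM-normalized library sizes, computed from the deposited counts. Log2 fold changes use a prior count of 0.125, and their SE is the change divided by the square root of F. Count ratios have exact 95% intervals, except those of MT1L values used for selection, which have none. A group with 3 counts or fewer in every library was given as counts. The code was tested on simulated data. In a simulated resistant A498 minus A498 over 18663 genes, 185 of the 200 with a 2-fold change were called, and 3 without one. Python 3.11.15, pandas 2.3.3 and matplotlib 3.10.9 made the tables and figures.

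The members and the gene lists were chosen with earlier results of these data known. Named genes were all members, and of each list some of the genes called, which were not in every comparison those with the largest change. Comparisons were named by the first group minus the second. No test was made of members between resistant 786-O and 786-O, or of MT1L anywhere. Gene positions and coding sequences came from GENCODE v44 on the same assembly, and promoters from RefSeq, where 4 of 10 members had an entry. The alternatives were library size scaling, DESeq2 1.42.0, no filter, a minimum of 10 counts, a replicate block, thinning to the smallest library, only the groups compared, a prior count of 2, CPM per kb and each library left out. Replicate numbers were not treated as pairs in the main fit. The correlation of same-numbered libraries' deviations ran from -0.184 to 0.201, and that of differently numbered ones from -0.207 to 0.159. Whether a shared number marks shared handling is not known.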

Additional observations from a re-analysis of the deposited data

Results flagged for a closer look

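For most genes named from the lists, the change from A498 to resistant A498 was set against that from 786-O to resistant 786-O. HSPA1B, PER1, DUSP1, TSC22D3 and NUP93 were left out of this section. The test was an interaction term in edgeR's model, and genes with an adjusted p under 0.05 are given here. Their values are the difference of the log2 changes, A498 pair minus 786-O pair. SLC30A3 and GNAO1, with 3 counts or fewer in every library of at least 1 group, had such a p as well, and no difference is given for them. Since the resistant A498 libraries resemble the 786-O lines more than A498, the difference between the lines and the change with resistance cannot be told apart in these values. It was -3.53 for HMOX1, -3.17 for SRXN1, -2.47 for HSPA1A and -1.40 for GCLM, all of the metal and oxidant stress list. Among zinc transporters it was -2.18 for SLC30A4, 1.30 for SLC30A9, -1.25 for SLC39A4 and -1.05 for SLC39A13. For the copper genes ATOX1 and SOD1 it was -1.04 and 0.30. The glucocorticoid-responsive KLF9, SGK1 and FKBP5 were at 1.59, 1.09 and 0.95, and NUDT21, beside the cluster, at 1.12. Among the genes given here, called changes in opposite directions were seen for KLF9, FKBP5, SLC30A4, SLC30A9, SLC39A13 and SRXN1.

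MT1E was 8.77 log2 units higher in resistant A498 than in A498 in all libraries and 1.40 lower in resistant 786-O than in 786-O, and the difference between these changes was not tested. Against 786-O, the same resistant A498 libraries were at -1.26.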

How the results depend on the processing

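The count of members called was 4 for resistant A498 minus A498 and 4 for resistant A498 minus 786-O, and stayed within 1.5 times of that under every alternative run. For 786-O minus A498 it rose from 3 to 5 without a filter, with only the groups compared, and without replicate 2 of resistant 786-O, and leaving out 1 library at a time gave 3 to 5. For resistant A498 minus resistant 786-O it was 1 and became 2 without a filter, and leaving out 1 library gave 0 to 3. MTF1 was called in resistant A498 minus A498 under library size scaling, at 0.21, and with only the groups compared, at 0.14. Counts of all genes called stayed within 1.5 times under each alternative. With a replicate block, members called were 4, 4, 3 and 1 in the order of resistant A498 minus A498, resistant A498 minus 786-O, 786-O minus A498 and resistant A498 minus resistant 786-O, and genes called were 14389, 12566, 14714 and 8974, and each member tested kept its call. It gave 13497 genes for resistant 786-O minus 786-O and 13494 for the difference of changes. Members under about 10 counts, and MT1L outside 786-O, are limited by depth.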
